A study of Mus musculus with 12 samples.

Results

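Probasin and a group of other proteins named for the secretion of the prostate were followed through 12 arrays of mouse anterior prostate. The group is 9 named genes out of 19935 genes measured with a single symbol: Pbsn, Tgm4, Msmb, Sbp, Azgp1, Apof, Cuzd1, Ceacam10 and Crym. They were taken by name, and each was read by 1 transcript cluster, the set of probes that covers a transcript on the Affymetrix Mouse Gene 1.0 ST array. Crym encodes mu-crystallin, a cytosolic protein that binds thyroid hormone, so that 1 of the 9 is not a secreted protein.

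The samples were whole anterior lobes of male mice killed at 12 weeks. All of them had a mixed background of C57BL/6J and DBA/2 (F3 generation, genotype label B6D2F3) and ate the AIN93G diet from 3 weeks. The wild type group is described as normal in the labels. The APT121 group is labelled PIN lesion, for prostatic intraepithelial neoplasia, and carries a transgene for T121, which is part of the SV40 large T protein and inactivates the pRb family, driven by the promoter of probasin. Each array held RNA of 2 mice mixed in equal amounts, which left 8 wild type pools and 4 APT121 pools, so each value is already a mean over mice. The T121 transcript itself is not analysed here.

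Prostate luminal cells make a fluid that mixes with the secretion of the seminal vesicles at ejaculation, and most of its proteins depend on androgen. Probasin is a lipocalin, a small secreted carrier protein, whose promoter is used to place transgenes in prostate epithelium. Tgm4, the prostate transglutaminase, crosslinks seminal vesicle proteins into the copulatory plug of rodents. Msmb, or beta-microseminoprotein, is a small cysteine-rich protein of semen, and Sbp, the spermine-binding protein, is known from the ventral lobe. Azgp1 is a soluble relative of the MHC class I heavy chain, Apof is apolipoprotein F, Cuzd1 carries CUB and zona pellucida domains, and Ceacam10 is a secreted member of the carcinoembryonic antigen family known from the seminal vesicle.

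The promoters of Pbsn and Tgm4 are shown because Pbsn is the gene after whose promoter the transgene is built and the second belongs to the member whose values lay closest to those of Pbsn. Sequences are those of RefSeq for GRCm38.p6, 5′ to 3′ on the strand of the gene, and cover the 250 bases before the annotated start (chrX:77853501-77853750, minus strand, for Pbsn and chr9:123034491-123034740, plus strand, for Tgm4). They are the mouse genes' own promoters and not the transgene's fragment, whose length and species the labels do not state. Capitals mark matches to AGAACA or TGTTCT, which are the 2 strands of the androgen response half-site, and to TATAAA or TTTATA, the 2 strands of a TATA box.

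Pbsn: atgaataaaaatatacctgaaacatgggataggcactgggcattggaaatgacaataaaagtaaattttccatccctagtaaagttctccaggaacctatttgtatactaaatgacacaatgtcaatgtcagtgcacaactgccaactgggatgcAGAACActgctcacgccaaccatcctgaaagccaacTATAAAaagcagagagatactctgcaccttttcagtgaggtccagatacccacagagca

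Tgm4: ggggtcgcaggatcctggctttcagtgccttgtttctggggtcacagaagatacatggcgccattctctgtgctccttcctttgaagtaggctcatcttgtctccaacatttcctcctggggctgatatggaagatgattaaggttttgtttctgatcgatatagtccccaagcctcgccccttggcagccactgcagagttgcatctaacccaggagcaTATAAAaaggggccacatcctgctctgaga

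The Pbsn window held 1 half-site match, beginning 95 bases before the start, and 1 TATA match, beginning 59 bases before it. The Tgm4 window held 1 TATA match, 30 bases before the start, and 0 matches to the half-site letters. Of all 32851 promoters in the table, 16.1% held a half-site match and 12.4% a TATA match in a window of the same length, and of the 27025 genes 18.2% and 14.3% had at least 1 such window. Promoters were listed for 6 of the 9 genes, the others being Sbp, Azgp1, Cuzd1 and Ceacam10. A half-site match was found for 3 of the 6 (Pbsn, Sbp in 1 of its 3 listed windows, and Ceacam10 with 3 matches) and a TATA match for 2, Pbsn and Tgm4. The full inverted repeat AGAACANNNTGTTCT stood in 0 of these windows and in 3 promoters of the table. A match is only a match of letters.

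The comparison of the genotypes asks which of these transcripts differ in prostate that carries the lesions. Pbsn, Tgm4, Azgp1, Ceacam10 and Crym were lower in APT121, Msmb and Apof were higher, and Sbp and Cuzd1 did not pass the test. Pbsn and Tgm4 fell from tight wild type values to scattered ones, while Msmb did the reverse and rose from scattered wild type values to a narrow band. Thus 7 of the 9 genes passed an adjusted p of 0.05 (limma, adjusted over all 19935 genes), where 52.8% of all genes passed. With 2 higher and 5 lower, the counts stand beside 22.8% of all genes higher and 30.0% lower. The median difference of the 9 was -0.55, against -0.09 for all genes. The APT121 and wild type values did not overlap for 5 of the 9 (Msmb and Apof above, Pbsn, Tgm4 and Azgp1 below), and for 34.6% of all genes, with 17.7% above and 16.9% below. Values below are log2 intensities, differences are APT121 minus wild type on that scale ± SE, and the p-values rest on how far pools, not single mice, differ. In whole lobes, fewer cells of a type and less RNA per cell cannot be told apart.

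**Figure D1:**
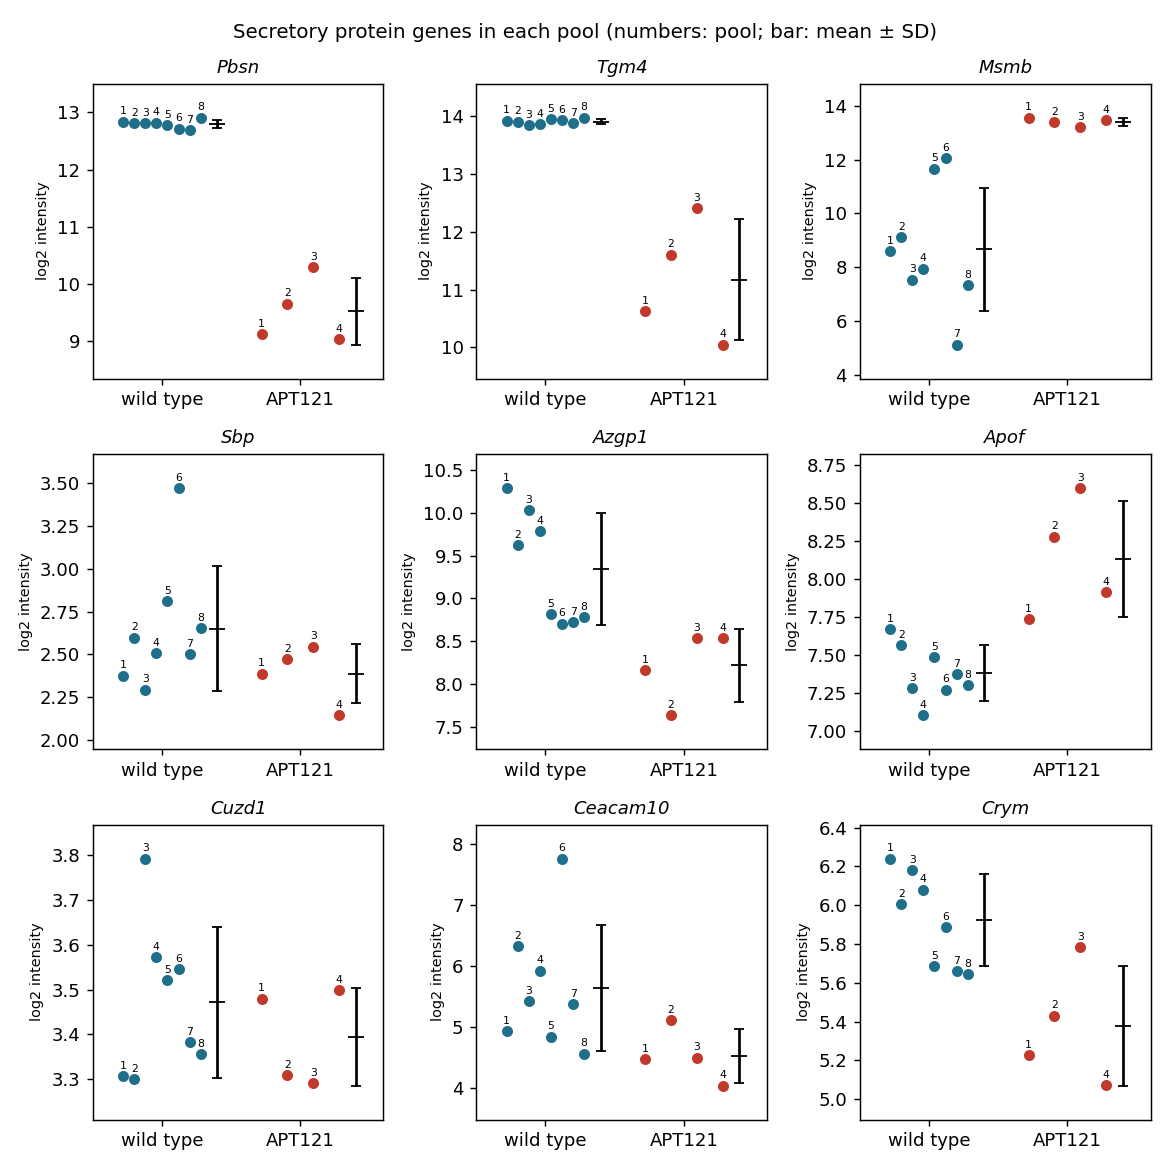
Log2 intensity of the 9 genes in each pool, with wild type in blue and APT121 in red, the pool number beside each point and the mean ± SD as a bar; each panel has its own axis. Pbsn and Tgm4 are tight in wild type and scattered in APT121, Msmb is scattered in wild type (5.12 to 12.04) and tight in APT121 (13.20 to 13.56), and Azgp1 is higher in wild type pools 1 to 4 than in pools 5 to 8.

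Pbsn read between 12.68 and 12.91 in the 8 wild type pools, with a median of 12.81. In APT121 it was at 9.12 in pool 1, 9.66 in pool 2, 10.30 in pool 3 and 9.03 in pool 4. Every APT121 pool lay at least 2.38 below the lowest wild type pool. The mean went from 12.79 ± 0.07 (SD, n = 8) to 9.53 ± 0.58 (SD, n = 4), a difference of -3.27 ± 0.17, or 9.62-fold lower (adjusted p = 1.48e-10). On the linear scale the array gave 6578 to 7676 in wild type and 524.1 to 1263 in APT121. Transcript of the gene whose promoter directs the transgene was thus measured at a lower, uneven level in the pools that carry it. The wild type SD of Pbsn was smaller than that of all but 5.33% of genes, and its APT121 SD was larger than that of 99.4% of them.

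Tgm4 moved like Pbsn. Its wild type values ran from 13.85 to 13.98 with a median of 13.92, an SD of 0.05. The APT121 pools read 10.63, 11.60, 12.42 and 10.04 in the order of their numbers, all below wild type and with an SD of 1.05. The difference was -2.74 ± 0.29, which is 6.68-fold (adjusted p = 7.74e-07). The limma fit uses 1 variance per gene for both genotypes, so the SEs of Pbsn and Tgm4 do not fully reflect the APT121 spread. An exact permutation test over 495 groupings of the arrays gave p = 0.00202, two-sided, for both genes, the smallest it can give. Pool 3 kept the most Tgm4 and pool 4 the least, the same order as for Pbsn, and the distance from the wild type mean ran from -1.50 in pool 3 to -3.87 in pool 4. Wild type Tgm4 intensities of 14735 to 16150 lie near the top of the arrays' range, whose highest values were 18323 to 20612, and whether this narrowed the wild type spread was not tested.

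**Figure D2:**
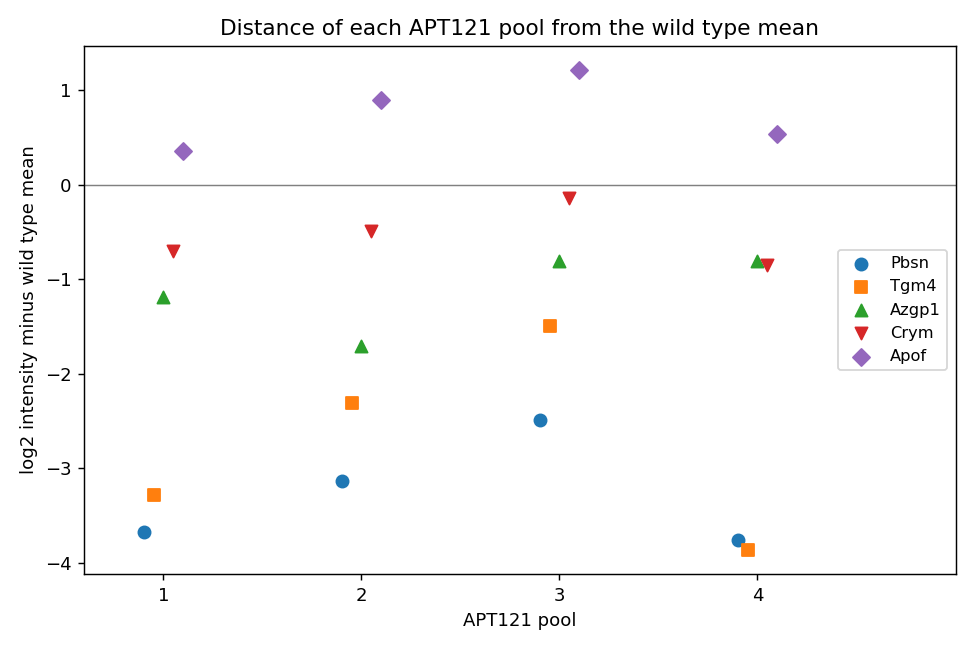
Log2 intensity minus the wild type mean in each of the 4 APT121 pools for Pbsn, Tgm4, Azgp1, Crym and Apof; the line at 0 is the mean of the 8 wild type pools. In pool 3 Pbsn (-2.49), Tgm4 (-1.50) and Crym (-0.14) lie closest to wild type while Apof (1.21) lies farthest, and Azgp1 does not follow that order.

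The APT121 pools thus differed among themselves. For Pbsn, Tgm4 and Crym the order from high to low was pool 3, pool 2, pool 1 and pool 4. Apof was also highest in pool 3 and next in pool 2. Genes of the proximal luminal epithelium, the cells of the ducts near the urethra (Psca, Krt4, Ly6d, Clu, Ppp1r1b, Krt7 and Cldn4 were measured), had summed intensities of 14333, 11459, 9290 and 16465 in pools 1 to 4, which is the opposite order. All 7 of them were higher in APT121, where the sum ran from 9290 to 16465 against 1736 to 2215 in wild type. Their part in the result was not tested. The order was not particular to this list. The sums of the androgen response list described below (15142, 15000, 13316 and 16241) ran the same way, as did those of the further prostate genes. Smooth muscle (7743, 8800, 9149 and 6822) and fibroblast sums (2473, 2621, 3090 and 1794) followed the order of Pbsn. So did basal, myeloid, lymphocyte, adipose and skeletal muscle sums, while endothelial, neuroendocrine and seminal vesicle sums followed neither order. The luminal list (Krt8, Krt18 and 7 others) was almost even across the APT121 pools, at 19931 to 20383, and higher than the 13891 to 16403 of wild type, although 4 of its 9 genes were higher, 4 lower and 1 did not pass, with a median difference of -0.04. Krt8, Krt19, Epcam and Cdh1 rose, and Cd24a, Hoxb13, Prom1 and Spdef fell.

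Markers of other cells of the lobe are given beside the shares of all genes that were higher (22.8%) or lower (30.0%). Smooth muscle markers were lower for 9 of 9 genes, with a sum of 6822 to 9149 in APT121 and 11326 to 13120 in wild type. Fibroblast markers fell for 8 of 8 (1794 to 3090 against 3598 to 4265) and basal markers for 7 of 9, with 1 higher (837.0 to 925.1 against 1052 to 1245). Endothelial markers fell for 7 of 8, and adipose markers for 7 of 7, and myeloid markers rose for 7 of 8. Neuroendocrine markers were lower for 4 of 5. Skeletal muscle markers were lower for 3 of 5, with a sum of 945.5 to 983.6 in APT121 and 1251 to 1725 in wild type. Lymphocyte markers (2 higher and 1 lower of 6) had about the 52.8% called of all genes. The lowest intensity on any array was 3.56, so a marker's value above 0 does not show that it is expressed. Detection calls were not used. The part of these markers in the results for the 9 genes was not tested.

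Msmb was the member that rose most and the one that varied most in wild type. The wild type pools read 8.60, 9.10, 7.53, 7.94, 11.67, 12.04, 5.12 and 7.32 in the order of their numbers. Pools 5 and 6 were high, pool 7 was low, and the range of 6.93 spans intensities from 34.7 to 4224. An SD of 2.29 was larger than that of 99.98% of genes in wild type. The APT121 pools lay at 13.56, 13.41, 13.20 and 13.46, with an SD of 0.15, and the lowest of them was 1.15 above the highest wild type pool. The difference was 4.74 ± 0.95 (adjusted p = 5.73e-04), and its 95% interval ran from 2.73 to 6.75. It was 5.11 against wild type pools 1 to 4 alone and 4.37 against pools 5 to 8 alone, and passed both times (adjusted p = 2.80e-08 and 0.0129). Leaving out each array in turn gave 4.23 to 5.22. Msmb was thus higher in every APT121 pool, by an amount that depends on the wild type pool it is set against.

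Apof rose by a smaller amount. It read 7.11 to 7.67 in wild type, with a median of 7.34, and 7.74, 8.28, 8.60 and 7.91 in the APT121 pools. All 4 were above all 8 wild type pools, by 0.07 at the closest. The difference was 0.75 ± 0.14, a 1.68-fold rise (adjusted p = 2.61e-04).

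Azgp1 was lower in APT121, and its wild type pools fell into 2 levels. Pools 1 to 4 read 10.29, 9.62, 10.03 and 9.79, and pools 5 to 8 read 8.82, 8.70, 8.72 and 8.78. The labels used here name nothing that parts these pools. The APT121 values were 8.16, 7.64, 8.53 and 8.54, all below every wild type pool, though by only 0.17 at the closest. Against all 8 pools the difference was -1.13 ± 0.30 (adjusted p = 0.00494). It was -1.72 against pools 1 to 4 (adjusted p = 2.28e-05) and -0.54 against pools 5 to 8 (adjusted p = 0.0204). The mean of pools 5 to 8 minus that of pools 1 to 4 was -1.18, about the size of the difference between the genotypes.

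Crym was also higher in wild type pools 1 to 4 (6.24, 6.01, 6.18 and 6.08) than in pools 5 to 8 (5.69, 5.89, 5.66 and 5.65). Its values did not part into 2 clear levels, as pool 6 lay nearer to pool 2 than to pool 5. The APT121 pools were at 5.23, 5.43, 5.79 and 5.07, and pool 3 overlapped the wild type range. The difference of -0.55 ± 0.14 passed (adjusted p = 0.00372). It passed against pools 1 to 4 (-0.75, adjusted p = 7.26e-04) and did not pass against pools 5 to 8 (-0.34, adjusted p = 0.0551).

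**Figure D3:**
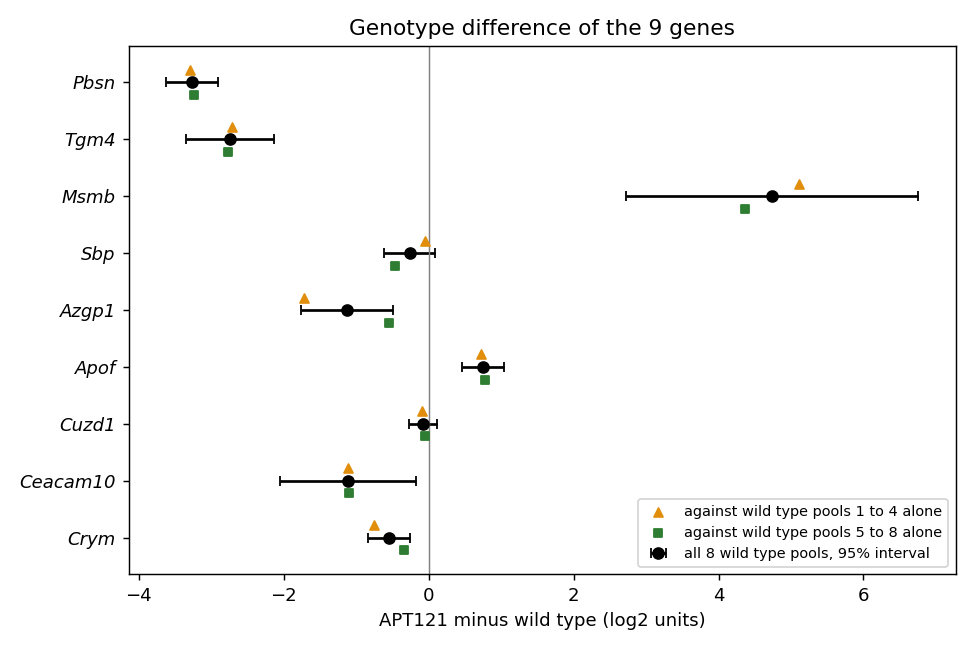
Difference APT121 minus wild type (log2 units) for the 9 genes, with its 95% interval from limma against all 8 wild type pools (black), and the difference against wild type pools 1 to 4 alone (triangles) or 5 to 8 alone (squares). Azgp1 moves from -1.72 to -0.54 and Crym from -0.75 to -0.34 between the sets of wild type pools, while Pbsn, Tgm4 and Apof stay close to their values against all pools.

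Ceacam10 was lower in APT121 at the edge of the threshold. Wild type pools 1 to 8 read 4.94, 6.32, 5.42, 5.92, 4.85, 7.76, 5.37 and 4.57, and APT121 pools 4.47, 5.11, 4.50 and 4.04. Pool 6 stood highest, and 3 wild type pools lay within the APT121 range. The difference was -1.11 ± 0.44 (adjusted p = 0.0458), and an exact permutation test over the 495 groupings of the 12 arrays gave p = 0.0566, two-sided. The call was lost without wild type pool 2, 3, 4 or 7 or without APT121 pool 1, 3 or 4 (adjusted p up to 0.126). Without wild type pool 6 the difference shrank to -0.81 and passed (adjusted p = 0.0284).

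Seminal vesicle transcripts were uneven in the same arrays. Of 11 measured genes of the seminal vesicle, 4 rose in APT121 (Svs2, Svs5, Pate4 and Eppin), 0 fell and 7 did not pass. The share higher among all genes was 22.8%, and the median difference of the list was -0.38. The sum of the list was 139.8 to 237.5 in wild type, except for 16069 in pool 6. In APT121 pools 1 to 4 the sum was 1637, 18032, 11262 and 14230. The defining genes Svs2, Svs4 and Svs5 read 12.93, 9.95 and 12.15 in wild type pool 6. Svs4 did not pass the test of genotype (1.94, adjusted p = 0.0886). Wild type pool 6 was thus high in both Ceacam10 and the sum of this list, whereas the APT121 pools were high in the sum and low in Ceacam10. The part of the seminal vesicle transcripts in the Ceacam10 result was not tested beyond leaving pool 6 out.

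**Figure D4:**
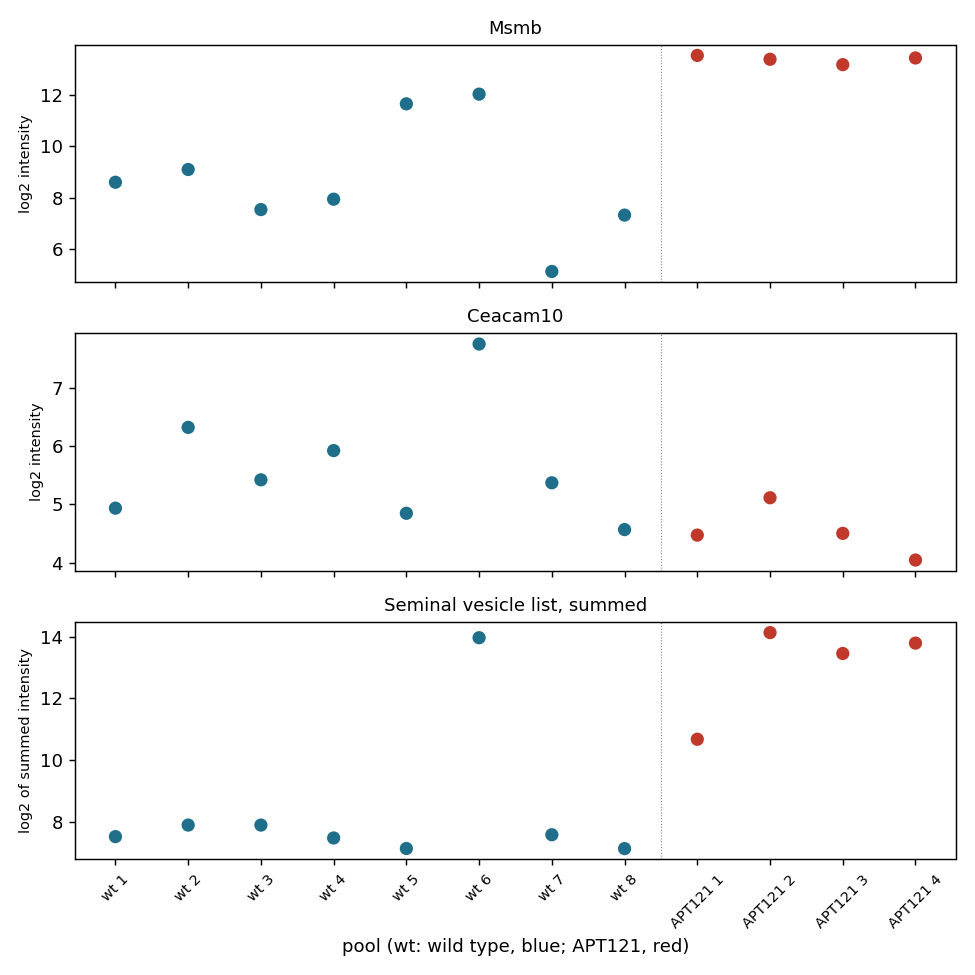
Log2 intensity of Msmb and of Ceacam10 and log2 of the summed intensity of 11 seminal vesicle genes, by pool, with wild type (wt) in blue and APT121 in red. Wild type pool 6 is high in all 3 panels, and pool 5 is high in Msmb only. The APT121 pools are high in Msmb and in the seminal vesicle sum and low in Ceacam10.

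Sbp and Cuzd1 gave little signal in either genotype. Sbp read 2.30 to 3.47 in wild type and 2.15 to 2.55 in APT121. On the linear scale this is 4.43 to 11.1, below the 25th percentile of the array's own intensities (10.4 to 11.8) in all 12 arrays. Its difference was -0.26 ± 0.17 (adjusted p = 0.193; 95% interval -0.62 to 0.09). The highest Sbp values were those of wild type pools 6 (3.47) and 5 (2.81), the pools with the most Msmb. Cuzd1 read 3.30 to 3.79 in wild type and 3.29 to 3.50 in APT121, with a difference of -0.08 ± 0.09 (adjusted p = 0.484; 95% interval -0.27 to 0.12), and was below the 25th percentile in 7 arrays. Neither gene was shown to lie above background.

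Among the genes searched, those whose profile over the 12 arrays was most like that of Pbsn were Fkbp11, a chaperone of the endoplasmic reticulum, Slco1a5, an organic anion transporter, and Agr2, a secretory disulfide isomerase. The search left out predicted or clone-named genes, noncoding RNAs, pseudogenes and olfactory or vomeronasal receptors. Likeness was measured as the root mean square distance between profiles of log2 value minus the wild type mean, and was 0.13, 0.15 and 0.16. The profiles were not scaled, so genes this close to Pbsn necessarily had a similar difference (-3.23, -3.22 and -3.33). Among the members themselves Tgm4 was closest to Pbsn, at 0.40, and Azgp1 next, at 1.37. No gene searched came as close to Msmb. The nearest were Cdcp3 (1.18), the chloride cotransporter Slc12a2 (1.52) and Mpzl2 (1.65), an adhesion molecule. Cdcp3 shared the wild type pattern of Msmb in part, with 7.55 and 8.76 in pools 5 and 6 and at most 5.52 in the other 6, and 9.10 to 11.24 in APT121.

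Further genes named for the prostate and its secretion, not all of them secreted (Psca and Mme encode surface proteins and Gsdma a cytosolic one), were described from a list of 32, of which 27 were measured. Of these 15 were higher in APT121, 7 were lower and 5 did not pass, with a median difference of 0.58. The share lower is near the 30.0% of all genes, and the share higher is above their 22.8%. Psca (6.41), Klk1b24 (4.27), Cdcp3 (4.22) and the chaperone clusterin, Clu (4.04), rose most. Pnliprp1 (-6.56), Fgl1 (-5.64), Gsdma (-5.52) and Agr2 (-3.33) fell most. Klk1b24 is 1 of a family of close glandular kallikrein copies, so the probes may read more than 1 of them.

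Genes of the androgen response were split as well. Of 21 measured, 10 were higher, 8 lower and 3 did not pass, with a median of 0.07. Among all genes, 22.8% were higher and 30.0% lower. Fkbp5 (3.35), an immunophilin that androgen induces, and Zbtb16 (1.60), Herc3 (1.45) and Ncoa4 (1.43), a nuclear receptor coactivator, were the largest rises. Tmprss2 (-1.85), Steap1 (-1.34), Ell2 (-1.19) and Abcc4 (-1.13) were the largest falls. Foxa1, a pioneer transcription factor, rose by 0.70, and Hoxb13, a homeobox factor of prostate, differed by -0.57 (adjusted p = 4.60e-06). Pbsn and Fkbp5, both genes that androgen induces, therefore moved in opposite directions.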

How the data were processed

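RNA of pooled anterior prostates was hybridised to Affymetrix Mouse Gene 1.0 ST arrays, per the labels. The authors deposited 1 linear intensity per transcript cluster and array, made by RMA, which corrects background, makes the arrays share 1 distribution and summarises probes (per the submitters' processing notes); its version is not given in the sources used here. Array medians were 32.1 to 33.7. Arrays have no read depth, and their number limits the precision.

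Log2 was taken here. Of 28815 clusters, 21780 had 1 symbol; the cluster with the highest mean was kept for each of 19935 genes, unfiltered. The test was limma 3.58.1 in R 4.3.3 (all 12 arrays, genotype the sole covariate, two-sided, Benjamini-Hochberg over all genes); the design text names SAM. The fit was tested on simulated data. The members and lists were chosen with earlier results of these data known. Other genes were named as the 4 largest rises and falls past the threshold of each pathway list, with Foxa1 and Hoxb13 always (some further items are not reported here), and as the 3 genes nearest in profile to Pbsn and Msmb. Other names, and the order of pools, were chosen after values were seen. The values come without a genome build.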

Additional observations from a re-analysis of the deposited data

Results flagged for a closer look

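Sbp in wild type pool 6, at 3.47, stood apart from the other 7 wild type pools, of which the nearest was at 2.81; the gap was 0.56 of the group's range. Among 18 groups examined (9 genes in each genotype) this was the 1 that stood out, and chance gives about 1 in 20. Sbp was below the 25th percentile of the array's own intensities in all 12 arrays, pool 6 included.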

How the results depend on the processing

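Pbsn, Tgm4, Msmb, Azgp1 and Apof kept their direction and their call in all 23 refits, which covered scaling, filters, variance options, choice of wild type pools and each array left out. The refit on the mean of a gene's clusters could not change the members' differences, as each has 1 cluster. Ceacam10 lost its call after repeated quantile normalisation (-1.09, adjusted p = 0.0634), with the trend and robust options (-1.11, adjusted p = 0.109), against wild type pools 5 to 8 alone (-1.10, adjusted p = 0.124) and in the exact permutation test (-1.11, p = 0.0566); with single arrays left out it ranged from -1.30 to -0.81. Crym lost its call against pools 5 to 8 alone (-0.34, adjusted p = 0.0551). Sbp passed there (-0.47, adjusted p = 0.0488) and nowhere else. Cuzd1 turned to 0.0351 (adjusted p = 0.772) after quantile normalisation. The cause was not tested. Without the lowest 25% of genes Sbp and Cuzd1 drop out, and without the lowest 50% Ceacam10 too. Over all genes, 10527 passed, and 7097 to 11927 under the alternatives. The split was 4540 higher and 5987 lower, 4103 and 7824 with arrays centred on their median, and 3770 and 3327 without the lowest 50% of genes. With the replicate number as a block 8814 passed, and the members' calls did not change. The members' differences in that refit equal those against wild type pools 1 to 4 alone, since pools 5 to 8 have no APT121 pool of the same number. Deviations of same-numbered pools correlated at -0.03 to 0.07, and those of differently numbered pools at -0.115 to 0.098. So few pools cannot show whether those of 1 number share more than the number.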

Other observations

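Among the seminal vesicle genes, some members were high both in wild type pool 6 and in APT121, and others in wild type pool 6 alone. Svs2, Svs5 and Pate4 read 12.93, 12.15 and 11.14 in wild type pool 6 and 12.61 to 13.26, 11.62 to 12.28 and 10.70 to 11.53 in APT121 pools 2 to 4. Svs1, Svs3a and Svs6 read 6.96, 6.45 and 5.86 in wild type pool 6, while in the 4 APT121 pools they read at most 4.17, 2.89 and 3.26, values like those of the other wild type pools (at most 4.28, 2.86 and 3.19). These genes were singled out after their values were seen.

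Wild type pools 5 and 6, the pools with the most Msmb, were also the highest of the 8 in Spink1, a secreted trypsin inhibitor, at 4.71 and 5.22 against at most 3.05 in the other 6, and in the beta-defensin Defb50, at 9.59 and 10.24 against at most 9.43. In APT121 Spink1 read 2.65 to 2.93 and Defb50 11.72 to 12.04. Spink1 did not pass the test of genotype (-0.68, adjusted p = 0.154), and Defb50 rose by 2.75 (adjusted p = 1.47e-07).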
